A study of Rattus norvegicus with 115 samples.

Results

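Growth differentiation factor 15 (Gdf15) was followed through every group of a rat study of radiotherapy for brain tumours. Gdf15 is 1 of 14217 genes with a value here, and it was selected on its annotation and its brightness: of the probe sets annotated to exactly Gdf15, the one with the highest mean log2 intensity over all arrays was to be used, and only 1 probe set carried the symbol. Its mean over the 115 arrays was 6.74 on the log2 scale, brighter than 28.0% of the genes, and its intensities ran from 33 to 773. This mean chose the probe set and is given as a description. The gene itself was put forward with earlier results of these arrays known, among them its rise in MRT tumours at 48 h, so its changes are no independent evidence of a response.

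Fisher rats received 100000 9L gliosarcoma cells in the right caudate nucleus, and irradiation followed 10 days later with synchrotron X-rays of 90 keV. Microbeam radiotherapy (MRT) delivers the dose in an array of narrow planes, here with 400 Gy at the peaks and 18 Gy between them, and the broad beam (BB) gave an even 17.4 Gy. RNA came from the tumour and from the contralateral, tumour-free hemisphere, and 60 rats gave 59 tumour and 56 contralateral arrays. Every rat carried a tumour, the untreated rats included. MRT tumours numbered 9, 8, 7 and 4 at 6 h, 48 h, 8 d and 15 d, BB tumours 6, 4, 4 and 4, and untreated tumours 5, 4 and 4 at 6 h, 48 h and 8 d. Contralateral samples numbered 9, 7, 6 and 4 after MRT, 6, 3, 4 and 4 after BB, and 5, 4 and 4 without treatment. No untreated group of 15 d was analysed here. The 35 BB arrays carry a label set of their own, and the BB treatment and that label set therefore cannot be told apart wherever BB samples are compared with MRT or untreated ones. All 14 measured neuronal markers were lower, and all 14 mitosis genes higher, in tumour than in contralateral samples of the untreated rats (median log2 differences of -1.96 and 4.40, against -0.03 over all genes). In that comparison 81.1% of all genes passed limma's adjusted p of 0.05, 5753 of them higher and 5773 lower in the tumour.

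Gdf15 is a secreted, distant member of the transforming growth factor beta (TGF-beta) family. It is made as a precursor that is cleaved by furin-like proteases and released as a disulphide-linked dimer, and its receptor GFRAL, found in the hindbrain, signals through the kinase RET to lower food intake. In most healthy tissues it is little expressed. Its gene is a known target of p53, the transcription factor activated by DNA damage, and of the integrated stress response, in which the transcription factors ATF4 and CHOP (gene Ddit3) are made when protein synthesis is restrained.

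RefSeq places 2 start sites of Gdf15 on chromosome 16 of the GRCr8 assembly, both on the plus strand. The window of the downstream start site, from 250 bases before it to 50 bases after it, is shown because it is the one of the 2 that holds core promoter motifs, with matches to the TATA box (TATAAA) and the GC box bound by Sp1 (GGGCGG or its reverse complement) in capitals.
Gdf15 start window, GRCr8 chr16:18839015-18839314, plus strand: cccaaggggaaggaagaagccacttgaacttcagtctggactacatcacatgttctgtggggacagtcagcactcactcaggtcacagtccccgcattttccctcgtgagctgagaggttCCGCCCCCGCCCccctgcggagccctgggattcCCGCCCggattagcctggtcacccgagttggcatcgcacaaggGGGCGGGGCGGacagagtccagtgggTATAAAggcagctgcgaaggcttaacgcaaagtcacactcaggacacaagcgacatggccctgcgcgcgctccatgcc
The TATA box begins 28 bases before the start site (position -28), and 14.2% of 33469 RefSeq start windows of this length hold these letters on either strand. The window has 5 matches to the GC box, and 33.1% of all windows have at least 1. A single EGR1-type motif (GCGNGGGCG) on the minus strand at position -129 overlaps GC boxes, and 4.98% of windows have one. No p53 half-site, CRE half-site (TGACG), AP-1 site (TGANTCA), E-box (CACGTG) or C/EBP-ATF composite (TGATGNAA) was found in it, where 7.98%, 21.2%, 7.33%, 6.42% and 3.98% of all windows hold one. The window of the upstream start site, chr16:18838186-18838485, matched none of the 8 motifs searched, on either strand. A match or its absence in these 300 bases describes the letters alone.

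In the tumour, Gdf15 was higher after MRT than without treatment at every time at which both were sampled. At 6 h the 9 MRT tumours had intensities of 82 at the lowest, 283 at the median and 773 at the highest, against 50, 51, 56, 60 and 85 in the untreated tumours. In 8 of the 9 MRT tumours the intensity lay above every untreated tumour, and the lowest MRT tumour (rat 7) fell inside the untreated range. On the log2 scale MRT tumours averaged 8.08 ± 1.04 (SD, n = 9) and untreated tumours 5.89 ± 0.31 (SD, n = 5), a difference of 2.19 ± 0.32 (SE), or 4.58-fold, with limma's adjusted p = 9.15e-06. Of all genes, 1.42% were called at adjusted p under 0.05 in this comparison, and Gdf15 was among the 144 called higher. In bulk tissue such as this, more cells with Gdf15 RNA and more Gdf15 RNA per cell cannot be told apart.

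At 48 h the 8 MRT tumours ran from 125 to 284 with a median of 200.0, and the 4 untreated tumours had 33, 45, 53 and 71. The groups did not overlap, and their log2 means were 7.62 ± 0.36 and 5.60 ± 0.46 (SD). Gdf15 rose by 2.02 ± 0.35 (limma, adjusted p = 0.000501), where 2.35% of genes were called. At 8 d the 7 MRT tumours ran from 119 to 307 with a median of 184, against 57, 57, 62 and 66 in the untreated tumours, again without overlap. The log2 difference was 1.64 ± 0.36 (limma, adjusted p = 0.00021). Here 47.8% of all genes were called, and Gdf15 ranked 814 by the size of its rise.

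**Figure D1:**
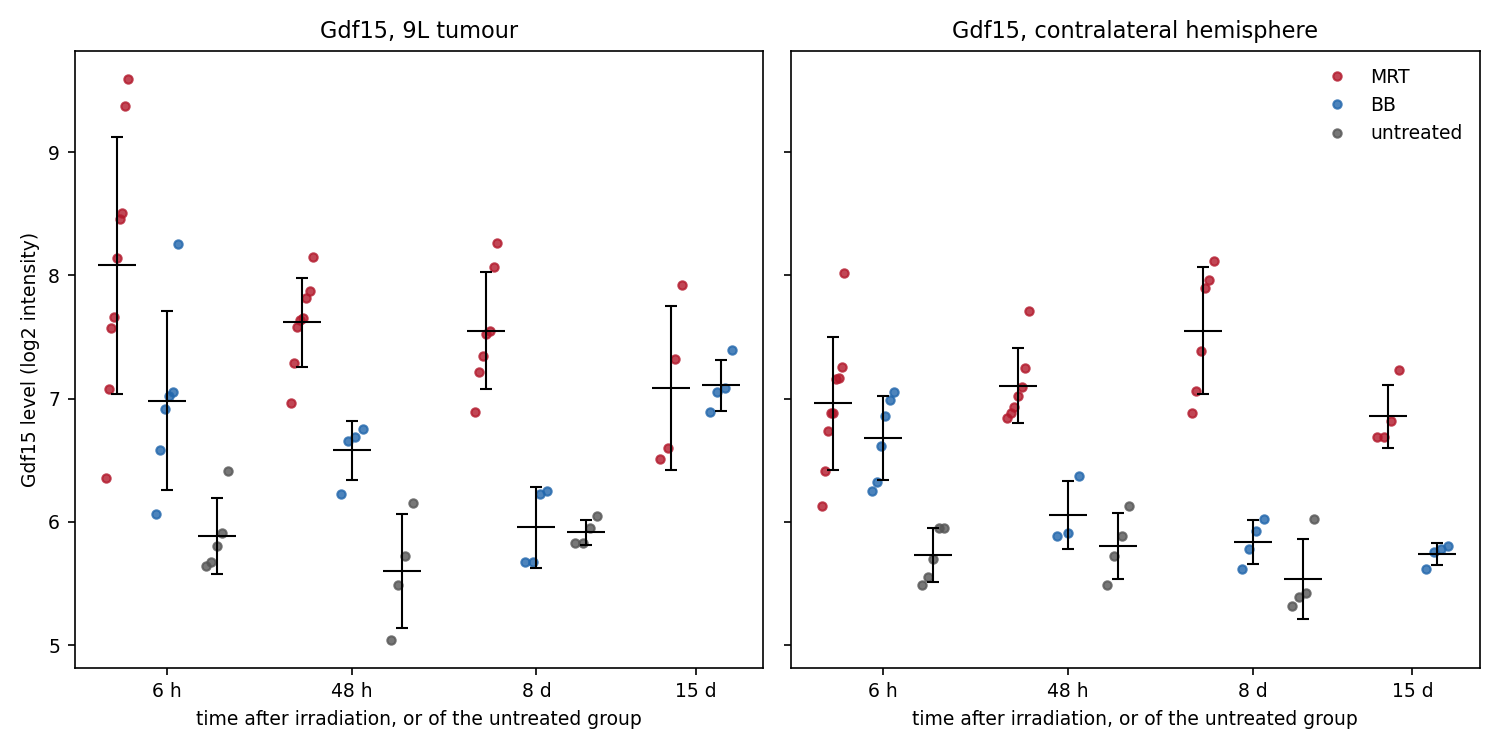
Gdf15 level of every array (log2 intensity, vertical axis) in tumours (left) and contralateral hemispheres (right) by time, with MRT in red, BB in blue and untreated rats in grey. Horizontal bars and whiskers are means and SD. MRT tumours at 6 h spread from 82 to 773 in intensity, and the 4 BB tumours at 15 d lie between 119 and 168 while their contralateral hemispheres lie between 49 and 56.

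After BB a tumour rise was called at 6 h and not at 48 h or 8 d. At 6 h the 6 BB tumours ran from 67 to 305 with a median of 125.5, against 50 to 85 in the 5 untreated tumours, and the difference was 1.10 ± 0.35 (limma, adjusted p = 0.0237), where 17.4% of genes were called. This call rests on single arrays. Without the brightest BB tumour, rat 47 at 305, the difference was 0.84 (limma, adjusted p = 0.0759), and without untreated rat 3 or 4 the adjusted p was 0.0561 and 0.0542. At 48 h the BB tumours had 75, 101, 103 and 108, all above the untreated tumours at 33 to 71, yet the difference of 0.98 ± 0.41 was not called (limma, adjusted p = 0.163; 2.60% of genes called). The BB tumour at 75 (rat 53) had a Gapdh 3' over 5' difference of 2.35 on the log2 scale, a sign of RNA degradation, against at most 0.837 on any other array, and without it the difference was 1.10 (limma, adjusted p = 0.168). At 8 d the BB tumours had 51, 51, 75 and 76 and the untreated tumours 57, 57, 62 and 66. The difference was 0.04 with a 95% interval of -0.78 to 0.85 (limma, adjusted p = 0.956; 22.9% of genes called).

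Set against each other, MRT tumours averaged more Gdf15 than BB tumours at 6 h, 48 h and 8 d, and the difference was called at 6 h and 8 d. At 6 h the difference was 1.10 ± 0.30 (limma, adjusted p = 0.0102; 15.7% of genes called), with overlapping ranges, 82 to 773 after MRT and 67 to 305 after BB. Leaving out BB rat 46, the dimmest at 67, gave 0.92 (limma, adjusted p = 0.0715). At 48 h every MRT tumour (125 to 284) lay above every BB tumour (75 to 108). That difference of 1.04 ± 0.35 was not called (limma, adjusted p = 0.957, unadjusted p = 0.0048), and 0% of genes were called in the comparison. At 8 d the MRT tumours at 119 to 307 again all exceeded the BB tumours at 51 to 76. Gdf15 was higher by 1.60 ± 0.36 (limma, adjusted p = 0.0191), where 1.27% of genes were called. Leaving out BB rat 54, 56 or 57 raised the adjusted p to 0.114, 0.0697 and 0.193, with differences of 1.50, 1.69 and 1.50.

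At 15 d the tumours of both arms had like averages. MRT tumours had 91, 97, 160 and 242 and BB tumours 119, 133, 136 and 168. The difference was -0.02 with a 95% interval of -0.84 to 0.79 (limma, adjusted p = 0.991; 3.05% of genes called). That interval is wide, so equal levels are not shown. Between 8 d and 15 d the BB tumours differed without overlap, 119 to 168 at 15 d against 51 to 76 at 8 d, a difference of 1.15 ± 0.41 that was not called (limma, adjusted p = 0.123; 1.70% of genes called). MRT tumours had 91 to 242 at 15 d and 119 to 307 at 8 d, a difference of -0.46 ± 0.36 (limma, adjusted p = 0.328; 27.9% of genes called). The difference between these 2 time courses was -1.62 ± 0.54 (limma, adjusted p = 0.103; 1.95% of genes called).

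The contralateral hemisphere, which holds no implanted tumour, also had more Gdf15 after MRT, at all 3 times with untreated samples. At 6 h the 9 MRT samples ran from 70 to 260 with a median of 118, against 45, 47, 52, 62 and 62 in untreated rats, and none of the MRT samples reached down to the untreated range. Their log2 means were 6.96 ± 0.54 and 5.73 ± 0.22 (SD), a rise of 1.23 ± 0.20 (limma, adjusted p = 4.63e-06; 8.22% of genes called). At 48 h the 7 MRT samples ran from 115 to 210 with a median of 130, and the untreated samples had 45, 53, 59 and 70. The rise was 1.30 ± 0.22 (limma, adjusted p = 2.73e-05), in a comparison in which 32.2% of genes were called.

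The highest contralateral level came at 8 d after MRT. The 6 MRT samples ran from 118 to 277 with a median of 203, and the untreated samples had 40, 42, 43 and 65. The log2 means were 7.55 ± 0.51 and 5.54 ± 0.32 (SD). Gdf15 rose by 2.01 ± 0.23, or 4.03-fold (limma, adjusted p = 3.4e-09; 7.91% of genes called), and ranked 44 by the size of its rise. All 3 contralateral rises after MRT had groups without overlap, and each kept its call when any single array was left out.

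After BB the contralateral rise was called at 6 h alone. At that time the 6 BB samples ran from 76 to 133 with a median of 107, all above the 5 untreated samples at 45 to 62, and the rise was 0.95 ± 0.21 (limma, adjusted p = 0.00109; 21.6% of genes called). At 48 h the BB samples had 59, 60 and 83 and the untreated samples 45, 53, 59 and 70, a difference of 0.25 ± 0.27 (limma, adjusted p = 0.499; 21.6% of genes called). At 8 d they had 49, 55, 61 and 65, against 40, 42, 43 and 65, a difference of 0.30 ± 0.25 (limma, adjusted p = 0.567; 5.94% of genes called). The 95% intervals of these differences were -0.29 to 0.79 and -0.20 to 0.80, so a small rise would not have been detected.

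Contralateral samples after MRT had more Gdf15 than those after BB from 48 h on. At 6 h the difference was 0.28 ± 0.19 (limma, adjusted p = 0.406; 5.39% of genes called), 70 to 260 after MRT and 76 to 133 after BB. At 48 h the MRT samples (115 to 210) all exceeded the BB samples (59 to 83), with a difference of 1.05 ± 0.24 (limma, adjusted p = 0.00874; 1.94% of genes called). Only 3 BB samples stand behind that value, and without BB rat 51 or 52 the adjusted p was 0.0811 and 0.104. At 8 d MRT samples at 118 to 277 exceeded BB samples at 49 to 65 by 1.71 ± 0.23, or 3.28-fold (limma, adjusted p = 1.04e-06; 3.02% of genes called) and ranked 13 by the size of the rise. At 15 d MRT samples had 103, 103, 113 and 150 and BB samples 49, 54, 55 and 56, a difference of 1.12 ± 0.25 (limma, adjusted p = 0.00329; 5.87% of genes called).

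**Figure D2:**
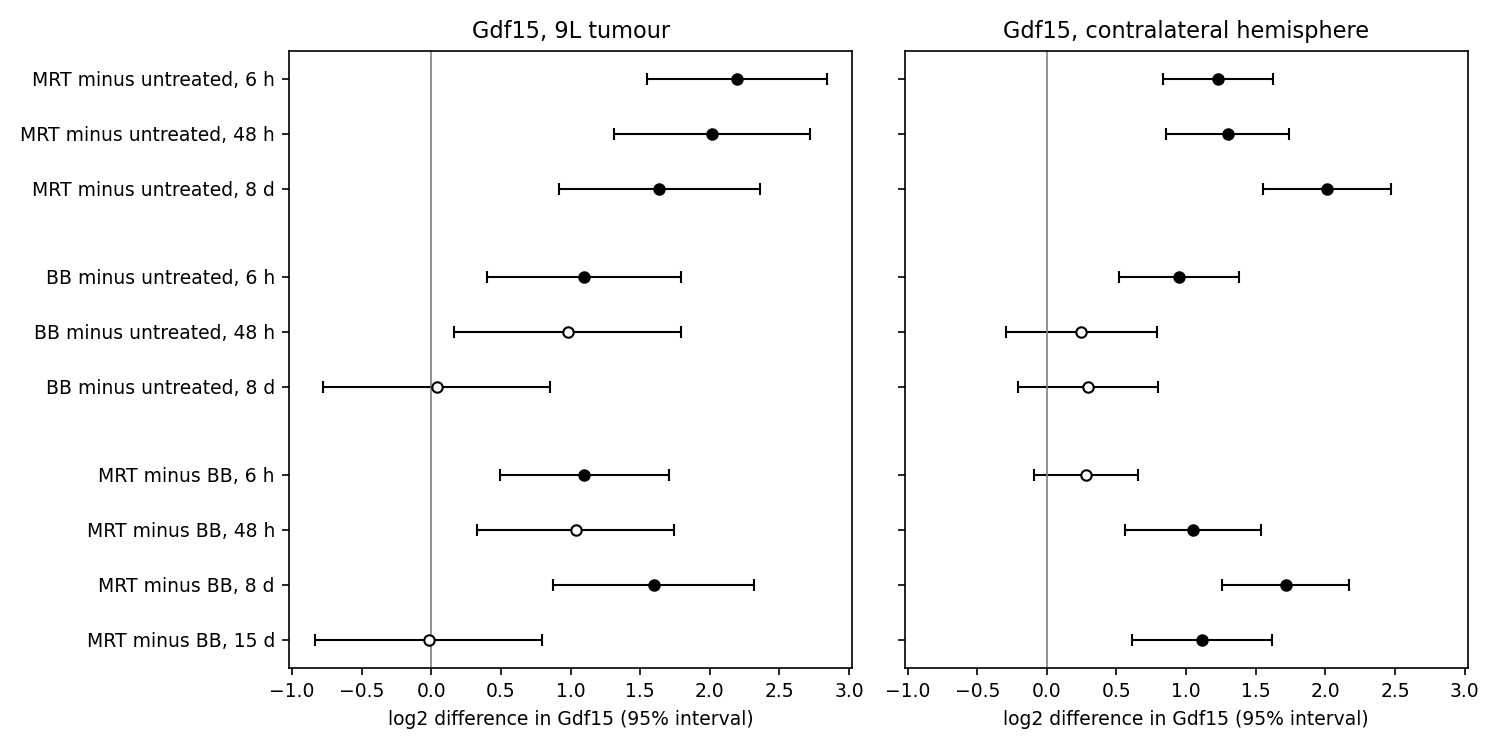
Log2 differences in Gdf15 with 95% intervals (horizontal axis) for MRT against untreated, BB against untreated and MRT against BB, at each time, in tumours (left) and contralateral hemispheres (right). Filled points passed adjusted p 0.05 over 14217 genes. The MRT rises lie between 1.64 and 2.19 in the tumour and between 1.23 and 2.01 in the contralateral hemisphere.

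Over time the untreated rats showed no called change in Gdf15. Untreated tumours at 8 d against 6 h differed by 0.03 ± 0.39 (limma, adjusted p = 0.963; 29.2% of genes called), and untreated contralateral samples by -0.19 ± 0.24 (limma, adjusted p = 0.808; 1.86% of genes called). In BB rats Gdf15 fell between 6 h and 8 d in both tissues. BB tumours were at 51 to 76 at 8 d and 67 to 305 at 6 h, a difference of -1.03 ± 0.37 (limma, adjusted p = 0.0482; 16.2% of genes called), and this call was lost when any of 8 of the 10 arrays was left out (the exceptions were BB 6 h rats 46 and 48), rat 47 again giving the smallest difference, -0.77. BB contralateral samples were at 49 to 65 at 8 d and 76 to 133 at 6 h, without overlap, a difference of -0.84 ± 0.23 (limma, adjusted p = 0.024; 3.18% of genes called). Without BB 6 h rat 44 or 47, or BB 8 d rat 54 or 57, its adjusted p lay between 0.0512 and 0.108.

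After MRT the change from 6 h to 8 d was called in the contralateral hemisphere and not in the tumour, and the difference between those changes was not tested. MRT tumours at 8 d (119 to 307) against 6 h (82 to 773) differed by -0.53 ± 0.29 (limma, adjusted p = 0.156; 33% of genes called). MRT contralateral samples at 8 d (118 to 277) rose over 6 h (70 to 260) by 0.59 ± 0.19 (limma, adjusted p = 0.0258; 12.3% of genes called), but the call was lost without MRT 6 h rat 7 or 12 or MRT 8 d rat 35, 37 or 38, with an adjusted p of up to 0.103. At 15 d the MRT contralateral samples (103 to 150) and those of 8 d (118 to 277) differed by -0.70 ± 0.23, which was not called (limma, adjusted p = 0.295) in a comparison that called 0.0633% of genes. BB contralateral samples at 15 d (49 to 56) and 8 d (49 to 65) differed by -0.10 ± 0.25 (limma, adjusted p = 0.949; 1.17% of genes called).

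Taking the untreated time course into account, no change of the treatment effect between 6 h and 8 d was called. The change of the BB effect was -1.06 ± 0.53 in the tumour (limma, adjusted p = 0.158; 14.6% of genes called) and -0.65 ± 0.33 in the contralateral hemisphere (limma, adjusted p = 0.389; 1.96% of genes called). The change of the MRT effect was -0.56 ± 0.48 in the tumour (limma, adjusted p = 0.396; 27.5% of genes called) and 0.78 ± 0.30 in the contralateral hemisphere (limma, adjusted p = 0.184; 3.61% of genes called). The contralateral gap between MRT and BB changed between 8 d and 15 d by -0.60 ± 0.34 (limma, adjusted p = 0.865; 0.00703% of genes called). These 5 comparisons and the corresponding one in the tumour at 15 d were added after the values had been seen.

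Ordered by mean log2 level, the 22 groups ran from MRT tumours at 6 h (8.08) to untreated contralateral samples at 8 d (5.54). The 12 brightest groups were the 8 MRT groups together with BB tumours at 15 d, 6 h and 48 h and BB contralateral samples at 6 h. The remaining 10 groups, with means from 5.54 to 6.05, were all 6 untreated groups, BB tumours at 8 d and BB contralateral samples at 48 h, 8 d and 15 d. The ranges of every pair of neighbours in this order overlapped. The widest gap between neighbours, 0.53, separated BB tumours at 48 h (75 to 108) from BB contralateral samples at 48 h (59 to 83).

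Averaged over times, the tumour minus contralateral difference was 0.11 ± 0.19 in untreated rats, with a 95% interval of -0.27 to 0.49 (limma, adjusted p = 0.6), in a comparison in which 81.1% of genes were called. In MRT rats the tumour was higher by 0.47 ± 0.14 (limma, adjusted p = 0.00154; 81.6% of genes called), and in BB rats by 0.58 ± 0.17 (limma, adjusted p = 0.00128; 77% of genes called). With the arrays shifted to a common median, the 3 differences were -0.15, 0.27 and 0.37, so the sign in untreated rats turned and the MRT call was lost (limma, adjusted p = 0.0627). Whether treatment raised Gdf15 more in the tumour than in the contralateral hemisphere of rats at the same time was tested directly. For MRT the difference between the effects was 0.96 ± 0.38 at 6 h (limma, adjusted p = 0.576; 0.886% of genes called), 0.72 ± 0.43 at 48 h (limma, adjusted p = 0.352; 2.48% of genes called) and -0.38 ± 0.44 at 8 d (limma, adjusted p = 0.534; 37% of genes called). For BB it was 0.15 ± 0.42 at 6 h (limma, adjusted p = 0.895; 1.53% of genes called), 0.73 ± 0.51 at 48 h (limma, adjusted p = 0.37; 5.70% of genes called) and -0.26 ± 0.49 at 8 d (limma, adjusted p = 0.763; 7.76% of genes called). None passed the threshold.

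Within rats the tissues could be paired, since 55 rats gave both. In 8 of 9 MRT rats at 6 h the tumour had more Gdf15 than the contralateral hemisphere, with a mean difference of 1.12 ± 0.94 on the log2 scale (SD). The 2 brightest tumours, rats 8 and 14 at 773 and 665, came from rats whose contralateral samples, at 144 and 118, lay inside the range of the other MRT rats. At 48 h the tumour was higher in 6 of 7 MRT rats, at 8 d in 4 of 6 and at 15 d in 2 of 4. In BB rats it was higher in 4 of 6, 3 of 3, 3 of 4 and 4 of 4 at the 4 times. The BB rats of 15 d stood out in the data after they had been seen. Their tumours had 133, 168, 136 and 119 and their contralateral samples 49, 55, 56 and 54, in rats 58, 59, 60 and 61. In the fit that treats arrays as independent, the difference was 1.37 ± 0.34 (limma, adjusted p = 0.00032; 61.7% of genes called). The differences within these 4 rats had an SD of 0.20. In untreated rats the tumour was higher in 2 of 5, 1 of 4 and 2 of 3 rats at 6 h, 48 h and 8 d.

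**Figure D3:**
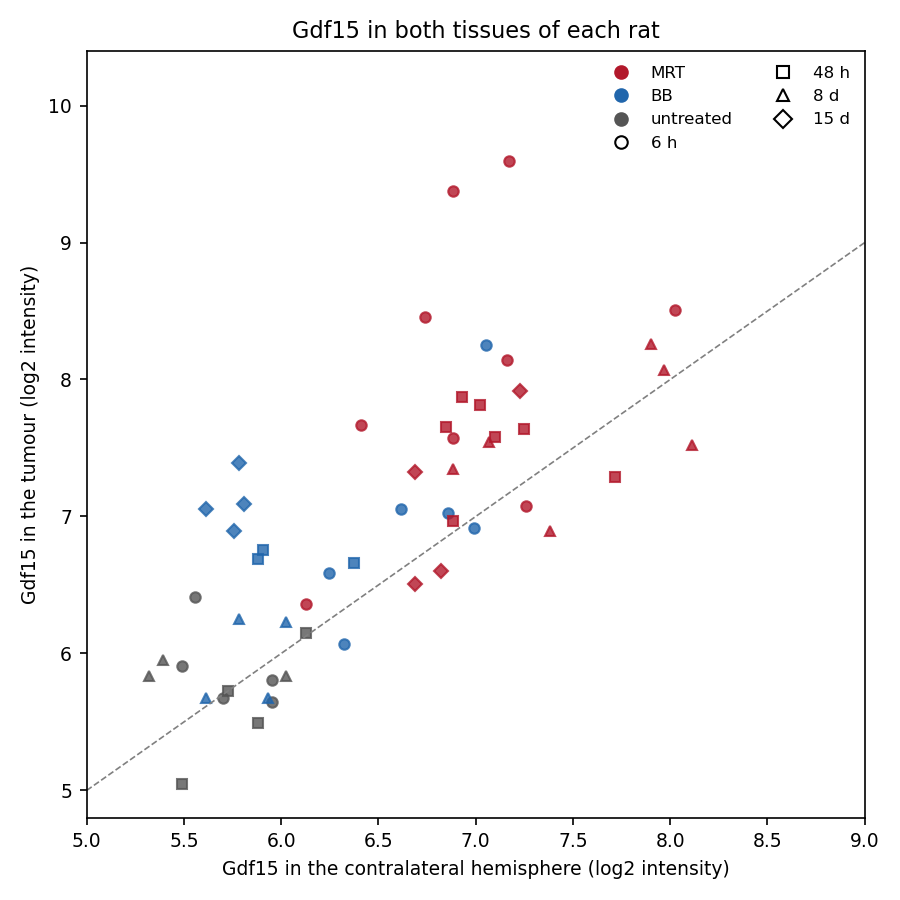
Gdf15 in the tumour (vertical axis, log2 intensity) against Gdf15 in the contralateral hemisphere of the same rat (horizontal axis, log2 intensity) for 55 rats, with MRT in red, BB in blue and untreated in grey and a symbol for each time. The dashed line marks equal levels. The 4 BB rats of 15 d (blue diamonds) lie above the line by 1.14 to 1.61.

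Once each array was expressed as its deviation from its group mean, tumour and contralateral Gdf15 of the same rat correlated weakly over the 55 rats (r = 0.421, permutation within groups, adjusted p = 0.0457 over 17 relations; Spearman's rho = 0.346, adjusted p = 0.0736). Without the 2 rats farthest from the median of the contralateral values r was 0.306. The value was 0.627 within the 17 BB rats and 0.381 within the 38 others.

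Cdkn1a, which encodes the cell cycle inhibitor p21, rose in all 6 comparisons of MRT with untreated samples and in all 6 of BB. In the tumour its differences after MRT were 2.53 ± 0.20, 2.28 ± 0.22 and 1.46 ± 0.23 at 6 h, 48 h and 8 d (limma, adjusted p at most 8.73e-07), and after BB 2.03 ± 0.22, 2.14 ± 0.25 and 0.86 ± 0.25 (limma, adjusted p at most 0.0129). In the contralateral hemisphere the MRT differences of Cdkn1a were 3.92 ± 0.19, 3.59 ± 0.21 and 2.50 ± 0.22, and the BB differences 3.39 ± 0.21, 3.13 ± 0.26 and 1.62 ± 0.24. Mdm2, the ubiquitin ligase that degrades p53, rose by 1.26 ± 0.11 after MRT and 0.59 ± 0.13 after BB in the contralateral hemisphere at 8 d (limma, adjusted p = 6.26e-12 and 0.00398). In tumours at 8 d Mdm2 differed by 0.06 ± 0.14 after MRT (limma, adjusted p = 0.737) and 0.02 ± 0.16 after BB (limma, adjusted p = 0.927), where Gdf15 was called after MRT and not after BB.

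Of 22 measured p53 targets, 9, 8 and 6 rose in MRT tumours at 6 h, 48 h and 8 d and 0, 0 and 2 fell, with list medians of 0.40, 0.48 and 0.15 against -0.01, 0.01 and -0.04 over all genes. Over all genes 1.42%, 2.35% and 47.8% were called in these comparisons, so at 8 d the share of p53 targets called lay below that of all genes. In BB tumours 10, 5 and 4 rose and 0, 0 and 1 fell, where 17.4%, 2.60% and 22.9% of all genes were called, so the 8 d count again stood near that share. In the contralateral hemisphere 12, 12 and 11 rose after MRT and 12, 9 and 5 after BB, with 0, 1 and 1 falling after either. The shares of all genes called there were 8.22%, 32.2% and 7.91% after MRT and 21.6%, 21.6% and 5.94% after BB. Between MRT and BB the contralateral counts were 2, 0, 8 and 7 higher at 6 h, 48 h, 8 d and 15 d, with 1 lower at 15 d. Over all genes 5.39%, 1.94%, 3.02% and 5.87% were called there, so the counts of 6 h and 48 h do not set the list apart. At 8 d the called members of the contralateral comparison of MRT with BB included Phlda3 (1.30 ± 0.17), Sesn2 (1.04 ± 0.15) and the death receptor Fas (1.23 ± 0.20).

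**Figure D4:**
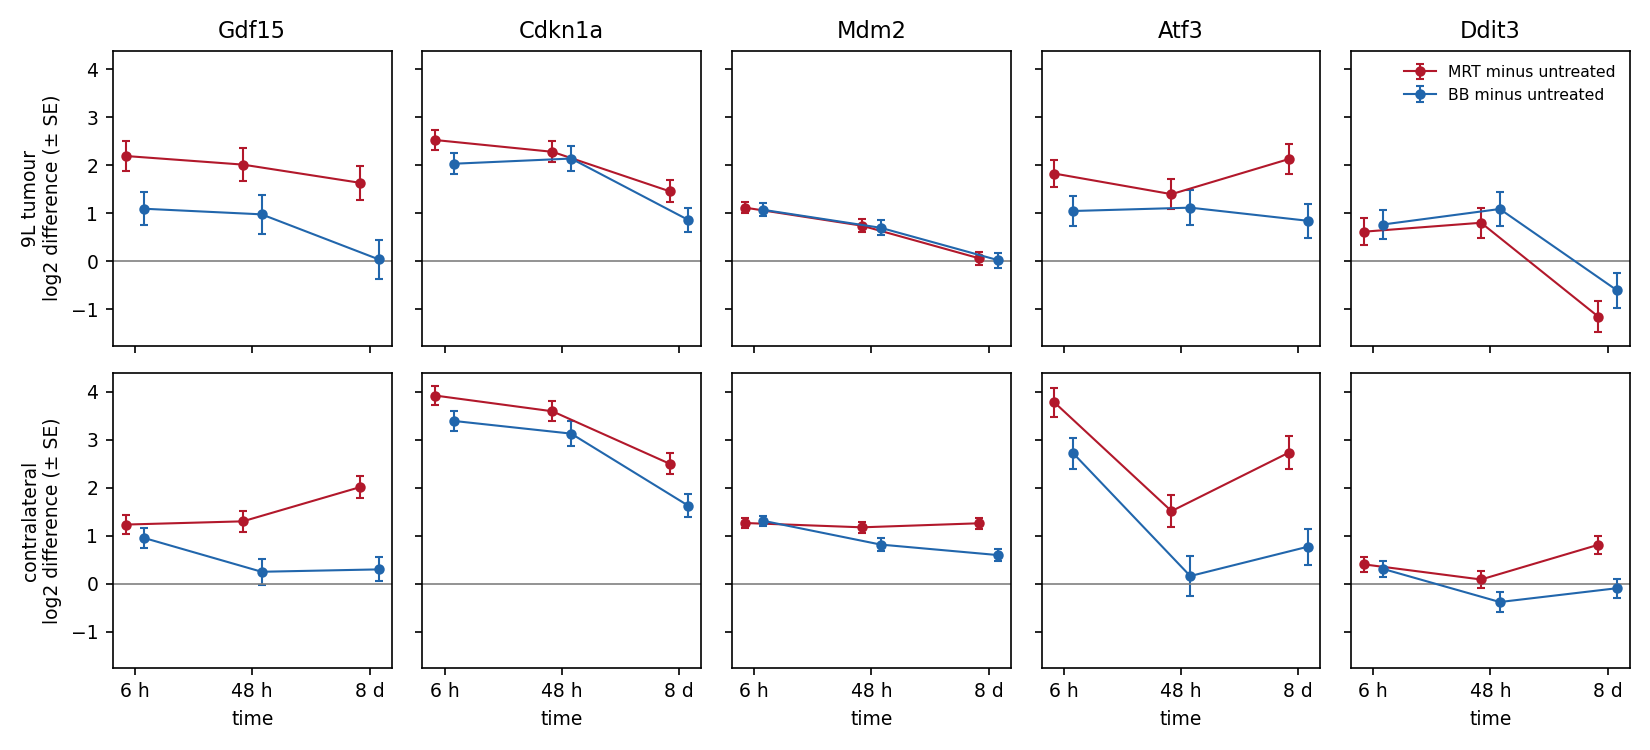
Log2 differences (± SE, vertical axes) of Gdf15 and 4 other genes at 6 h, 48 h and 8 d for MRT minus untreated (red) and BB minus untreated (blue), in tumours (top) and contralateral hemispheres (bottom). In contralateral samples at 8 d Gdf15 stands at 2.01 after MRT and 0.30 after BB, and Cdkn1a at 2.50 and 1.62.

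Among known regulators of Gdf15, Atf3, a stress-induced transcription factor, was called higher in each comparison with untreated samples in which Gdf15 was. It rose in MRT tumours by 1.83 ± 0.28, 1.40 ± 0.31 and 2.13 ± 0.32 at 6 h, 48 h and 8 d (limma, adjusted p at most 0.00674) and in BB tumours by 1.05 ± 0.31 at 6 h (limma, adjusted p = 0.0143), with 1.12 ± 0.36 and 0.85 ± 0.36 at the later times (limma, adjusted p = 0.072 and 0.0786). In the contralateral hemisphere Atf3 rose after MRT by 3.78 ± 0.30, 1.51 ± 0.33 and 2.73 ± 0.34, and after BB by 2.72 ± 0.32 at 6 h, with 0.16 ± 0.41 and 0.77 ± 0.38 later (limma, adjusted p = 0.793 and 0.239). MRT exceeded BB in contralateral Atf3 at all 4 times, by 1.06 ± 0.28, 1.35 ± 0.37, 1.96 ± 0.34 and 1.26 ± 0.38 (limma, adjusted p at most 0.0363).

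Ddit3 and Atf4, the stress response factors named above, were called lower in MRT tumours at 8 d, where Gdf15 was called higher. In MRT tumours at 8 d Ddit3 fell by 1.15 ± 0.32 (limma, adjusted p = 0.00279) and Atf4 by 0.43 ± 0.15 (limma, adjusted p = 0.0191), while Gdf15 was higher by 1.64. At the earlier times the group means lay the other way, and no call is given here for those differences. Ddit3 averaged 11.71 ± 0.61 and 12.07 ± 0.43 (SD) in MRT tumours at 6 h and 48 h, against 11.09 ± 0.42 and 11.26 ± 0.38 in untreated tumours. Atf4 averaged 12.53 ± 0.34 and 12.35 ± 0.16 (SD), against 12.12 ± 0.18 and 12.05 ± 0.14. At 8 d BB tumours averaged 11.47 in Ddit3 and 11.74 in Atf4, and untreated tumours 12.08 and 12.37. In the contralateral hemisphere at 8 d Ddit3 rose after MRT by 0.81 ± 0.18 (limma, adjusted p = 0.00187), and Atf4 differed by 0.08 ± 0.13 (limma, adjusted p = 0.84). Nfe2l2, the oxidative stress factor NRF2, rose in all 3 contralateral MRT comparisons, by 1.48 ± 0.14, 0.85 ± 0.16 and 0.77 ± 0.16 (limma, adjusted p at most 0.000742). It was called higher in no MRT comparison of the tumour. BB samples of 6 h also had high Nfe2l2. Contralateral means were then 10.52 after BB, 10.56 after MRT and 9.08 without treatment, and tumour means 11.74, 11.39 and 10.89. Egr1, an immediate early factor, was called higher in MRT than in BB tumours at 6 h (0.82 ± 0.21, limma, adjusted p = 0.00636). Sp1, whose GC box is printed above, was called lower in MRT tumours at 8 d (-0.43 ± 0.15, limma, adjusted p = 0.02) and Klf4, a growth-restraining factor, likewise (-1.16 ± 0.35, limma, adjusted p = 0.005). Of the 30 integrated stress response genes, 7, 7 and 8 rose and 0, 0 and 8 fell in MRT tumours, and 5, 2 and 6 rose and 1, 4 and 0 fell in contralateral samples after MRT. Over all genes 1.42%, 2.35% and 47.8% were called in these tumour comparisons and 8.22%, 32.2% and 7.91% in the contralateral ones. Against those shares, the counts in MRT tumours at 8 d and in contralateral samples at 48 h do not set this list apart.

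Gfral was not analysed here, for want of a probe set with its symbol. The 8 measured genes around it were its signalling partner Ret, the GDNF-family co-receptors Gfra1, Gfra2, Gfra3 and Gfra4, and the GDNF-family ligands Gdnf, Nrtn and Pspn. In MRT tumours 0 of them were called at 6 h or at 48 h, where 1.42% and 2.35% of all genes were. At 8 d 3 rose, Ret by 1.48 ± 0.51 (limma, adjusted p = 0.0144), Gfra1 by 0.96 ± 0.25 (limma, adjusted p = 0.00125) and Nrtn by 0.46 ± 0.16 (limma, adjusted p = 0.0144), a share below the 47.8% of all genes called then. The other 5 differed there by between -0.44 (Gdnf) and 0.40 (Gfra2) and were not called. In MRT contralateral samples at 48 h Ret rose by 0.75 ± 0.25 (limma, adjusted p = 0.0199), where 32.2% of all genes were called. Gfra2 fell there by 0.50 ± 0.13 (limma, adjusted p = 0.00523) and Gfra3 by 0.43 ± 0.14 (limma, adjusted p = 0.0195). Untreated contralateral Gfra3 at 48 h ran from 5.39 to 6.88, against 5.21 to 5.73 after MRT. Whether the fall of Gfra3 rests on a single untreated array was not tested. At 8 d Gfra1 rose in MRT contralateral samples (0.68 ± 0.17, limma, adjusted p = 0.00637) and in BB tumours (0.82 ± 0.28, limma, adjusted p = 0.0291). In BB samples at the earlier times Pspn rose in tumours at 6 h (0.44 ± 0.12, limma, adjusted p = 0.00676) and fell in contralateral samples at 48 h (-0.38 ± 0.12, limma, adjusted p = 0.0289). Untreated contralateral Pspn at 48 h ran from 6.91 to 7.75, against 6.70 to 6.94 after BB. Whether the fall of Pspn rests on a single untreated array was not tested either. Gfra4 fell in BB tumours at 48 h (-0.52 ± 0.15, limma, adjusted p = 0.041) and in BB contralateral samples at 6 h (-0.49 ± 0.13, limma, adjusted p = 0.0059).

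Of 5 measured proteases listed under processing, 0 were called in MRT tumours at 6 h or 48 h. Whether each of them acts on the Gdf15 precursor was not examined. At 8 d all 5 were called, where 47.8% of all genes were, and they went both ways. The proprotein convertases Pcsk5 (0.68 ± 0.24, limma, adjusted p = 0.017) and Pcsk6 (0.82 ± 0.32, limma, adjusted p = 0.0336) rose. The convertases Furin (-0.51 ± 0.21, limma, adjusted p = 0.0462) and Pcsk7 (-0.37 ± 0.14, limma, adjusted p = 0.0241) fell, as did the membrane metalloprotease Mmp14 (-1.46 ± 0.36, limma, adjusted p = 0.000789).

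Markers of other cells moved with several of these comparisons. Over all genes, 1.42%, 2.35% and 47.8% were called in MRT against untreated tumours at 6 h, 48 h and 8 d. The shares were 8.22%, 32.2% and 7.91% in the contralateral samples. In MRT contralateral samples at 8 d, 9 of 13 measured macrophage markers rose and 0 fell (median 1.20, against 0.02 over all genes), among them Cd68 (2.34 ± 0.23) and Lgals3 (2.51 ± 0.30). Their mean log2 level per array was 8.33 to 8.55 in MRT samples and 6.99 to 7.35 in untreated samples, and 7.03 to 8.14 in BB samples of 8 d. In MRT tumours at 8 d all 13 rose (median 2.12), with levels of 10.1 to 11.8, against 8.40 to 9.49 in untreated tumours, while all 11 T and NK cell markers and 10 of 14 neuronal markers rose and all 14 mitosis genes fell. At 6 h, when Gdf15 in MRT tumours was highest, 1 of 13 macrophage markers rose in them and their level was 7.59 to 9.15, against 7.56 to 9.47 in untreated tumours. At 48 h 8 of 13 macrophage markers rose in MRT tumours (median 1.39), with levels of 9.11 to 9.34, against 7.64 to 8.27 in untreated tumours. In MRT contralateral samples 7 rose and 1 fell at 6 h (median 0.62), and 10 rose at 48 h (median 1.06). Neutrophil markers rose in 4 of 8 cases in MRT tumours at 6 h, with levels of 5.49 to 6.79 after MRT and 4.83 to 6.09 without treatment. Contralateral neutrophil levels at 6 h were 5.22 to 6.88 and 4.74 to 5.11. Microglia marker levels in contralateral samples were lower after MRT, 6.10 to 7.60 against 8.07 to 8.25 at 6 h and 7.70 to 7.98 against 8.29 to 8.71 at 8 d. At 48 h they overlapped. In tumours they were 7.28 to 9.15 against 8.83 to 9.16 at 6 h and 8.63 to 9.02 against 8.30 to 9.25 at 8 d. The lowest intensity in the files is 7 and no detection calls were used, so the presence or absence of a marker was not tested. Within groups, the deviations of Gdf15 and of the macrophage marker level gave r = 0.215 and rho = 0.128 in tumours (permutation, adjusted p = 0.154 and 0.486). In contralateral samples they gave r = 0.196 and rho = 0.426 (permutation, adjusted p = 0.0798 and 0.00669), with r = 0.429 in the BB arrays and 0.119 in the others. How much of a group difference in Gdf15 goes with these cells was not tested. With the level of neuronal markers as a covariate, the tumour differences of Gdf15 after MRT were 2.19, 2.08 and 1.44 at 6 h, 48 h and 8 d.

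Hypoxia genes rose in late tumours after BB, after MRT and without treatment. Of 17, 13 rose and 0 fell in BB tumours at 15 d against 8 d (median 0.89, against -0.01 over all genes), among them the peptide hormone Adm (3.48 ± 0.41), Ndrg1 (1.74 ± 0.22) and the prolyl hydroxylase Egln3 (2.21 ± 0.30), beside the uncalled difference of 1.15 in Gdf15. In untreated tumours at 8 d against 6 h 13 also rose and 0 fell (median 0.90), beside a Gdf15 difference of 0.03. In MRT tumours at 15 d against 8 d 10 rose and 1 fell (median 0.44), among them the carbonic anhydrase Car9 (4.16 ± 0.37), beside a Gdf15 difference of -0.46. Over all genes 1.70%, 29.2% and 27.9% were called in these 3 comparisons. The mean level of the list per array was 10.9 to 11.2 in BB tumours of 15 d and 9.54 to 10.2 in those of 8 d, and 10.6 to 10.9 in untreated tumours of 8 d. In MRT tumours it was 10.1 to 11.2 at 15 d and 9.56 to 10.2 at 8 d. Within groups the deviations of Gdf15 and of this level gave r = 0.390 and rho = 0.516 in contralateral samples (permutation, adjusted p = 0.00283 and 0.00102), 0.433 without the 2 farthest arrays, 0.501 in the BB arrays and 0.385 in the others. In tumours they gave r = 0.258 and rho = 0.274 (permutation, adjusted p = 0.0798 and 0.118). How much of a group difference in Gdf15 goes with hypoxia was not tested.

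Across all 22 group means, the genes with the pattern most like Gdf15 by Pearson's r were Pdpn (0.806), Sesn2 (0.783), Tnfsf9 (0.781), Slc16a1 (0.779), Thbs4 (0.771) and Atf3 (0.763). Cdkn1a came seventh at 0.756, Mdm2 was at 0.674 and Ddit3 at 0.352. Over the 11 tumour groups alone the list was Tp53inp1 (0.919), Iars1 (0.887), Thbs4 (0.859), Ccl2 (0.840), Tnfsf9 (0.830) and S100a8 (0.822). Over the 11 contralateral groups it was Pdpn (0.961), Sesn2 (0.950), LOC102548205 (0.938), Gtse1 (0.934), Traf7 (0.930) and Tmbim1 (0.926). Pdpn encodes the membrane glycoprotein podoplanin, and Sesn2 the stress-induced protein sestrin 2. These values describe group means that share arrays and untreated samples, and Thbs4, with an SD of 0.18 between group means, varied little.

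Besides hypoxia and macrophage markers, 6 further measures were set against Gdf15 within groups in each tissue. In tumours (n = 59) the deviations of Gdf15 and Cdkn1a from their group means gave r = 0.553 and rho = 0.388 (permutation within groups, adjusted p = 0.00283 and 0.0403 over 17 relations), 0.438 without the 2 farthest arrays and 0.457 without the MRT tumours of 6 h. Atf3 gave r = 0.487 and rho = 0.294 in tumours (permutation, adjusted p = 0.00319 and 0.105), and r = 0.588 and rho = 0.481 in contralateral samples (n = 56; permutation, adjusted p = 0.00085 and 0.00127). The Atf3 relation in contralateral samples was 0.698 outside BB and 0.188 within the 17 BB arrays, and the difference between these values was not tested. The Cdkn1a relation in tumours was 0.803 within the 18 BB arrays and 0.474 in the 41 others. In contralateral samples Cdkn1a gave r = 0.408 and rho = 0.327 (permutation, adjusted p = 0.0134 and 0.0762). Mdm2 gave r = 0.399 and rho = 0.127 in tumours (permutation, adjusted p = 0.0489 and 0.507), and 0.125 without the MRT tumours of 6 h. In contralateral samples Mdm2 gave r = -0.048 (permutation, adjusted p = 0.827), and 0.266 without the 2 farthest arrays. Ddit3 in tumours gave r = -0.032 (permutation, adjusted p = 0.85), with -0.589 within BB arrays and 0.108 in the others. In contralateral samples Ddit3 gave r = 0.270 and rho = 0.239 (permutation, adjusted p = 0.043 and 0.157), with 0.171 within BB arrays and 0.330 in the others. Mitosis genes gave r = -0.334 in tumours (permutation, adjusted p = 0.073) and 0.138 in contralateral samples (permutation, adjusted p = 0.192), and neuronal markers 0.175 and 0.254 (permutation, adjusted p = 0.192 and 0.121).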

How the data were processed

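RNA was isolated with the mirVana kit and 200 ng of it labelled with the 3' IVT Express kit for Affymetrix arrays, per the labels' protocols. Affymetrix Expression Console served for the array processing, with RMA alone for BB samples and MAS5 beside RMA for the others, per the submitters' processing notes. The deposited values are a normalized intensity, in whole numbers of 7 to 27837, and the median per array lay between 117 and 165. The number of arrays limits the precision. Log2 was taken here, although the design had assumed that log2 values were deposited. At the lowest Gdf15 intensity, rounding amounts to 0.044 on that scale. Left out of 31099 probe sets were 57 controls, 436 with several symbols and 9780 with none, and the brightest probe set stood for each of 14217 genes. No 2 arrays held identical values.

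The 59 tumour arrays and the 56 contralateral arrays were each fitted with 1 mean per group in limma 3.58.1 (R 4.3.3, with an intensity trend), and all 115 together where tissues were compared. P-values were Benjamini-Hochberg adjusted over all genes, and ± after a difference is its standard error. The fit was tested on simulated data. Of 46 comparisons, 7 were added after the values were seen. Gdf15 and all gene lists were chosen with earlier results of these data known. Genes were named by rule: all measured members of the receptor, regulator and processing lists, the 6 most similar genes per set of groups, Cdkn1a, Mdm2, Ddit3 and Atf3, and up to 3 members with the largest statistic of other lists. Deviations from group means were correlated with 100000 permutations within groups. Correlations split by label set, and those without MRT samples of 6 h, were added later. The rat numbers of the labels tie both tissues of 55 rats, and in 38 of them the tissues' deviations over all genes correlated above 0.1 (median 0.186). Tissues of different rats were not correlated for comparison, so the pairing rests on the labels. Alternatives changed the scaling, the pseudocount, array weights, the groups fitted, a covariate, the rat as a block or the arrays kept. Motifs were read from RefSeq start windows with Python 3.11.15.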

Additional observations from a re-analysis of the deposited data

Results flagged for a closer look

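Among the 4 untreated contralateral samples of 8 d, rat 30 stood apart, with a Gdf15 level of 6.02 on the log2 scale (intensity 65) against intensities of 40, 42 and 43 in the other rats. The gap to the next sample was 0.851 of the range of the group, above the critical value of 0.829 for 4 samples. Such a test marks about 1 in 20 groups by chance. Without this array the contralateral rise after MRT at 8 d was 2.17 and the difference after BB was 0.46.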

How the results depend on the processing

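Of 842 values of the 46 comparisons under alternatives, 781 kept the direction and the side of the threshold, 36 lost a call, 11 gained one and 14 changed sign, none of these in a called comparison. Of 19 called comparisons, 11 kept the call in every alternative run, among them all 6 of MRT with untreated samples and the contralateral difference between MRT and BB at 8 d and 15 d. The sizes of those MRT rises moved with the setting, apart from arrays left out. They ran from 1.76 to 2.36, 1.50 to 2.08 and 1.26 to 1.67 in tumours at 6 h, 48 h and 8 d. In contralateral samples they ran from 0.89 to 1.27, 0.95 to 1.54 and 1.49 to 2.27. The cause of these changes and of those below was not tested. Fitting only the groups compared left fewer arrays for the spread and ended the calls of BB against untreated tumours at 6 h (1.10), MRT against BB tumours at 6 h (1.10) and 8 d (1.60), and of 8 d against 6 h in BB tumours (-1.03) and MRT contralateral samples (0.59). A pseudocount of 32 ended the 8 d against 6 h calls of BB tumours (-0.77) and BB contralateral samples (-0.60). The neuron covariate ended that of BB tumours (-0.93), and quantile normalization that of MRT contralateral samples (0.52). Array quality weights added calls for BB against untreated tumours at 48 h (1.00), MRT tumours at 8 d against 6 h (-0.71), 15 d against 8 d in BB tumours (1.48) and MRT contralateral samples (-0.91), and the MRT effect in tumour minus contralateral at 6 h (1.22). They also added calls for the change from 6 h to 8 d of the BB effect in tumours (-1.40) and of the MRT effect in contralateral samples (1.15), and for the change from 8 d to 15 d of MRT minus BB in tumours (-1.84) and contralateral samples (-0.81). With a common median per array the tissue difference was -0.15 in untreated rats, 0.27 in MRT rats with no call, and the untreated tumour difference of 8 d against 6 h was -0.012. BB against untreated tumours at 8 d turned negative with quantile normalization (-0.12), array weights (-0.21) and the neuron covariate (-0.048), and MRT against BB tumours at 15 d became 0.090 with the Gapdh covariate.

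Leaving out 1 array at a time gave 0.84 to 1.28 for BB against untreated tumours at 6 h and -0.058 to 0.13 at 8 d. MRT against BB tumours ran from 0.91 to 1.35 at 6 h, 1.48 to 1.71 at 8 d and -0.30 to 0.17 at 15 d, and MRT against BB contralateral samples from 0.95 to 1.21 at 48 h. Differences of 8 d against 6 h ran from -0.033 to 0.16 in untreated tumours, -0.75 to -0.34 in MRT tumours (called without rat 7), -1.21 to -0.77 in BB tumours, 0.48 to 0.72 in MRT contralateral samples and -0.93 to -0.77 in BB contralateral samples. The change of the contralateral MRT effect from 6 h to 8 d ran from 0.67 to 0.94 and was called without MRT 6 h rat 10. With the rat as a replicate block the paired tissue differences were 0.11 in untreated, 0.47 in MRT and 0.58 in BB rats, and the block changed no call of Gdf15. Other Gdf15 probe sets could not be tried, since only 1 carries the symbol. Untreated Gdf15 levels lie near the low end of the array's intensities and no detection calls were used here.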

Other observations

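Other members of the TGF-beta family were called higher in 1 of the 8 comparisons with untreated samples in which Gdf15 was. Of 21 measured ligands, 0 rose and 1, 1 and 7 fell in MRT tumours at 6 h, 48 h and 8 d, and 0 rose and 2, 8 and 1 fell in MRT contralateral samples. Over all genes 1.42%, 2.35% and 47.8% were called in these tumour comparisons and 8.22%, 32.2% and 7.91% in the contralateral ones, so the counts do not set the family apart. In contralateral samples of 48 h the mean level of the list ran from 6.12 to 6.93 without treatment and from 5.96 to 6.16 after MRT. Whether the falls there rest on single untreated arrays was not tested. At 6 h after BB 3 rose and 3 fell in tumours (17.4% of all genes called), with Gdf9, an oocyte growth factor, higher by 0.45 ± 0.10 (limma, adjusted p = 0.00187), and 0 rose and 4 fell in contralateral samples (21.6%). Bmp4, a bone morphogenetic protein, fell in MRT tumours at 6 h (-1.22 ± 0.30, limma, adjusted p = 0.016) and in MRT contralateral samples at 8 d (-0.98 ± 0.19, limma, adjusted p = 0.000373). The list medians lay between -0.28 and 0.03 in the 6 MRT comparisons, against -0.11 to 0.02 over all genes.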
